A study of Mus musculus with 20 samples.

Results

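The first 35 Mb of mouse chromosome 1 (mm10) held 895 of the 53626 accessible regions found in 20 libraries of brain endothelial cells. A region is the union of all ATAC-seq peaks that overlap by at least 1 bp over the 20 deposited peak lists, and it belongs to the stretch if it is on chromosome 1 and starts before 35000000. The stretch was chosen by measured values of the same libraries, because earlier results had shown more peaks there at 2 and 6 months than at 12 and 18 months. That contrast is therefore described here without a test and supports nothing. The remainder of chromosome 1 held 3493 regions.

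All animals were wild-type C57BL/6 mice, and the endothelial cells were enriched from brain by flow cytometry before the transposase reaction. Mice aged 2 months gave 4 libraries (1 male, 3 females), mice aged 6 months gave 5 (2 males, 3 females), mice aged 12 months 5 (2 males, 3 females) and mice aged 18 months 6 (3 males, 3 females). Replicate numbers follow the order of listing and pair nothing. The numbers that the libraries carry form 3 runs, called library sets here, although the labels do not say that they are batches. Set 1 has 3 libraries of 18 months (replicates 1, 2 and 6). Set 2 has 9 libraries, namely 2 months replicate 1, all 5 of 12 months and 18 months replicates 3, 4 and 5. Set 3 has the other 3 libraries of 2 months and all 5 of 6 months. Apart from 2 months replicate 1, each set holds either younger or older mice only, so age and library set cannot be told apart over most of the data.

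Open chromatin marks DNA that the transposase can reach between nucleosomes. Promoters of broadly used genes are open in most cells, whereas enhancers, often far from their gene, are open in the cell types that use them. Brain endothelial cells line the vessels of the brain and seal it from the blood, and Sox17, in this stretch, encodes a transcription factor of arterial endothelium and vessel integrity. Much of the stretch otherwise consists of long genes of neurons and muscle, and of wide intervals with few genes.

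The sorted cells carried the open gene ends of endothelium. Of 10 endothelial marker genes, 9 had a peak at a gene end in 18 or more libraries, among them Cdh5, Cldn5 and Tek in all 20, and 1, Erg, had none. Markers of other cells mostly lacked them: 3 of 4 pericyte, 2 of 3 astrocyte, 3 of 3 microglial, 2 of 3 neuronal and 3 of 3 oligodendrocyte genes had no such peak in any library. The exceptions were Slc1a3, an astrocyte transporter, in 7 libraries (1 at 2 months, 4 at 12 and 2 at 18), and Pdgfrb and Snap25 in 1 library each. Lists held 19829 to 39421 peaks. The implied background, a measure of relative depth recovered from each peak's fold and p-value (the 1st percentile over a library's chromosome 1 peaks), was 0.733 to 3.92 in set 3 and 1.71 to 3.74 in sets 1 and 2.

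Sequence was at hand for promoters of 47 genes of the stretch, in 59 windows of the 250 bases before a RefSeq start (GRCm38.p6, the assembly that mm10 names). All of these windows lay beyond 18114889, the lower end of Crisp4, so Sox17, Eloc and the other genes before it had none. Some windows overlap, such as those of Ccdc115 and Imp4, and were counted separately. The windows of 4 genes whose start had a peak in all 20 libraries follow, as examples of open promoters. Mcm3 encodes a subunit of the replicative helicase, Smap1 a regulator of clathrin-dependent trafficking, Ptp4a1 a phosphatase and Ptpn18 another, which acts on tyrosine. Capitals mark matches, on either strand, to GGGCGG (the SP/KLF box), CCAAT (the NFY box) and CCGGAA (an ETS core). Each is written 5′ to 3′ on the gene's strand.
Mcm3, chr1:20820313-20820562, minus strand: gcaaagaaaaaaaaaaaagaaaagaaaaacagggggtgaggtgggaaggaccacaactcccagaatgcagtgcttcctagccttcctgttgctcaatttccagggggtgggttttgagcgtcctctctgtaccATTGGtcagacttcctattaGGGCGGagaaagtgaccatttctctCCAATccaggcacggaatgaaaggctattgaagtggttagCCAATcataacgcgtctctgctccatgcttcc
Smap1, chr1:23922382-23922631, minus strand: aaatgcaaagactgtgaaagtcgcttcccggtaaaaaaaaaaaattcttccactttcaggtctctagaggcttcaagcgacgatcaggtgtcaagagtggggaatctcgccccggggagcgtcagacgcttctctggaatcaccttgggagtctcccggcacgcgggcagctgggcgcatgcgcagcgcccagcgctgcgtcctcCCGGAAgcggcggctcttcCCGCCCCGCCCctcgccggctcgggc
Ptp4a1, chr1:30949756-30950005, minus strand: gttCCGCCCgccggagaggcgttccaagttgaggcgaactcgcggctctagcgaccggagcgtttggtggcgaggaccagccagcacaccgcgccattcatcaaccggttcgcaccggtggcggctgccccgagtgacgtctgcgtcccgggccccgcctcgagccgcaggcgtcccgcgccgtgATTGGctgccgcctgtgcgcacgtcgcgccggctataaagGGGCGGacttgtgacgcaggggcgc
Ptpn18, chr1:34459496-34459745, plus strand: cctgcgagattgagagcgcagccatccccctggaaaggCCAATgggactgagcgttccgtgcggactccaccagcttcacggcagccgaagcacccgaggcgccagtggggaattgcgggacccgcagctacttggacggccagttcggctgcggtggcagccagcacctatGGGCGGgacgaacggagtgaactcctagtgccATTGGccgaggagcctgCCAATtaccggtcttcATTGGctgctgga

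For contrast, 2 windows are from genes with no peak at the start in any library. Pkhd1 encodes fibrocystin, a protein of kidney and bile duct cilia, and Rims1 a protein of the presynaptic active zone.
Pkhd1, chr1:20618058-20618307, minus strand: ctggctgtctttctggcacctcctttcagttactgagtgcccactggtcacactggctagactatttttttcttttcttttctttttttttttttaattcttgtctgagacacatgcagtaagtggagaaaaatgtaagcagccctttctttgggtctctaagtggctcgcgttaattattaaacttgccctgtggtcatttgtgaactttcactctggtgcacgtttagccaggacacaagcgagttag
Rims1, chr1:22806159-22806408, minus strand: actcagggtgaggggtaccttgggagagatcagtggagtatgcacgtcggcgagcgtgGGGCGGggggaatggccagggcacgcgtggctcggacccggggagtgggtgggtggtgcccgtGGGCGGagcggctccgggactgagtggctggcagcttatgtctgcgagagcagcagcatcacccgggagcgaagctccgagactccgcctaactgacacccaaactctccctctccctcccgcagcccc

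Of the 14 windows with a peak at the start in all libraries, 12 (85.7%) held GGGCGG, 6 held CCAAT and 4 held CCGGAA. Of the 37 windows without a peak in any library, 9 (24.3%) held GGGCGG, 13 held CCAAT and 0 held CCGGAA. Of the 8 windows with a peak in 1 to 19 libraries, 3 (37.5%) held GGGCGG, 0 held CCAAT and 1 held CCGGAA. The AP-1, SOX, GATA and CTCF motifs were counted too. They stood in 1, 0, 0 and 2 of the 14 windows and in 2, 3, 4 and 3 of the 37. In the 8 windows they stood in 0, 1, 4 and 0. Over the 21044 windows of the whole RefSeq table, 43.0% held GGGCGG, 35.6% held CCAAT and 15.1% held CCGGAA. The 14 windows open in all libraries were also richer in G and C, with a median of 62.0%. The median was 58.8% in the 8 windows, 50.8% in the windows without a peak and 55.6% over the table. A match is only a run of letters, and Rims1 shows that GGGCGG also stands in a window with no peak.

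Gene ends were few in the stretch. A region counts as a gene end where a peak's summit is no more than 1000 bp from a protein-coding gene's first or last annotated base, because strand was known for only 47 of the 112 protein-coding genes. By that rule 55 members (6.15%) were gene ends, against 21.9% of all regions and 17.5% (613 of 3493) on the rest of chromosome 1. Another 256 (28.6%) lay inside a gene and 584 (65.3%) between genes. Gene-end members were also the widest, with a median of 1012 bp against 408.5 bp inside genes and 359.5 bp between them. A union widens with the number of libraries merged, and among members called in all 20 libraries the medians were 1114.5 bp at gene ends and 992 bp elsewhere.

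Width was compared within each library, so that depth was the same on both sides. Peak strength was not matched. The libraries' median -log10 q in the stretch was 10.5 to 29.1 at gene ends and 8.13 to 10.6 elsewhere. The median gene-end peak of the stretch was 613 bp wide on average over libraries, and the median peak elsewhere in the stretch 369 bp. The difference was 243 ± 72.3 bp (SD, n = 20) and had the same sign in 20 of 20 libraries (two-sided sign-flip permutation p = 1e-05, the smallest the 100000 permutations can give, 2e-05 adjusted over 2 tests). Gene-end peaks were narrower in the stretch than on the rest of the chromosome, at 613 against 660 bp, in 17 of 20 libraries. That difference of -47.5 ± 42.1 bp had a permutation p of 0.00019 (adjusted 0.00019), but it was -14.5 bp with p = 0.0911 when a gene end reached to 2000 bp. These p-values measure how the same sets of regions vary between libraries, not how one gene end varies from another.

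Sharing among libraries followed the same division. All 20 libraries called 34 of the 55 gene-end members (61.8%) and 67 of the 840 others (7.98%), where 23.7% of all regions of the genome were called by all. On the rest of chromosome 1 the shares were 57.9% of gene ends and 11.6% of other regions. Conversely 268 of the 840 others (31.9%) and 3 of the 55 gene ends were called in a single library, against 23.5% of all regions. On the rest of chromosome 1 the shares were close to these, at 30.8% of other regions and 7.99% of gene ends. The median gene-end member was called in 20 libraries and the median other member in 3. The others that every library called were wide (median 992 bp), and those called by 1 library were near the smallest width found (median 257 bp, smallest 250 bp). The others were not all far from gene starts. Within 1000 bp of a listed start lay 8 of them, 4 of which all libraries called. No strand was known for a protein-coding gene before Crisp4, so starts there may have been missed and 8 may be too few. With gene ends reaching to 2000 bp, gene-end members numbered 71.

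**Figure D1:**
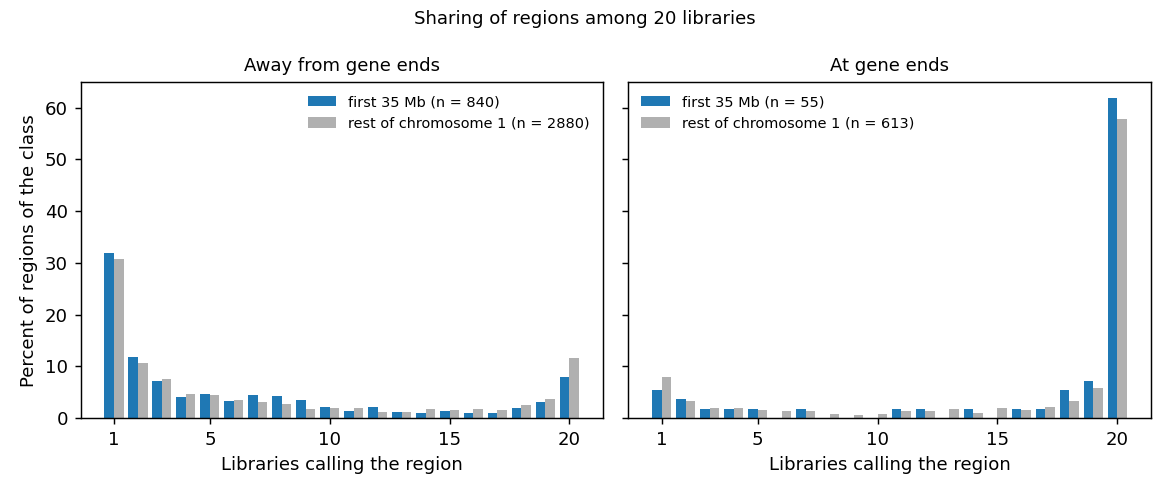
Percent of regions (vertical axis) by the number of libraries that called them (horizontal axis, 1 to 20), for regions away from gene ends (left) and at gene ends (right), in the first 35 Mb (blue) and on the rest of chromosome 1 (grey). Gene ends pile up at 20 libraries, with 61.8% of the 55 in the stretch, whereas 31.9% of the 840 others were called in 1 library.

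Gene-end peaks were found at about as many genes as lacked them. Of 112 protein-coding genes, 36 (32.1%) had a gene-end peak in all 20 libraries, 19 in some and 57 in none. Of 26 listed genes of cell maintenance, 18 had one in all libraries and 6 in some. The strongest 8 by the authors' -log10 q, as the median of the 20 libraries, were led by Eloc (elongin C, a subunit of ubiquitin ligases, region 16656432 to 16657602, median 62.0). Then came Imp4 (ribosomal RNA processing, 34439190 to 34440255, 59.9), Vcpip1 (a deubiquitinase, 56.0) and Rrs1 (ribosome assembly, 53.1). Tcea1 (transcription elongation, 52.3), Ogfrl1 (50.4), Mcm3 (47.0) and Terf1 (telomere binding, 44.9) completed them. The 2 maintenance genes without a gene-end peak, Lmbrd1 (lysosomal vitamin B12 export) and Dst (dystonin, a cytoskeletal linker), each had a peak in all 20 libraries at a start listed inside the annotated gene.

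Genes of other cell types mostly had no peak at their ends. Of 14 listed genes of excitable cells and the eye, 0 had a gene-end peak in all libraries and 12 had none in any, including Xkr4, Rp1 (a photoreceptor gene) and Rgs20. The exceptions were Jph1, a junctophilin of muscle membranes, in 17 libraries and Npbwr1, a neuropeptide receptor, in 1. Of 11 listed transcription regulators, Sox17 and Mybl1 (a Myb family factor) had one in all libraries, Ncoa2 (a nuclear receptor coactivator) in 14 and Tcf24 in 2, and 7 had none, among them St18, Prdm14 and Eya1. Zfp451, also among the 7, had a peak in all 20 libraries at a start listed inside the annotated gene. Of 6 matrix and secreted genes, Crispld1 had one in all and Sbspon in 7. Among 6 signalling genes, Sgk3 (a kinase) and Prex2 (an exchange factor for Rac) had one in all, Ly96 (a partner of the endotoxin receptor) in 19 and Slco5a1 (a transporter) in 16. Among genes of epithelium and detoxification, Paqr8 had one in all libraries, and Pkhd1, Cpa6 and Gsta3 had none. These counts read against the 32.1% of the stretch's genes open in all libraries, and no list was tested.

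Gene-end peaks of the stretch made up a similar share of a library's gene-end peaks at every age. Their numbers were less alike, from 38 to 50 at 6 months and from 50 to 55 at 18 months. The stretch held 43, 47, 50 and 52 gene-end peaks at 2 months, 50, 44, 38, 46 and 45 at 6 months, and 53, 51, 50, 44 and 51 at 12 months. At 18 months it held 50 to 55 (median 52.5). As a share of all gene-end peaks of a library, the 2-month mice had 0.508% ± 0.0151 (SD, n = 4) and the 6-month mice 0.512% ± 0.0290 (n = 5). The 12-month mice had 0.509% ± 0.0171 (n = 5) and the 18-month mice 0.511% ± 0.0216 (n = 6). All 4 ages overlapped, and the share stayed within 0.462% and 0.546% in every library.

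Peaks away from gene ends differed widely. The stretch held 205, 426, 387 and 414 of them at 2 months, 366, 333, 449, 371 and 343 at 6 months, 196, 203, 240, 204 and 237 at 12 months, and 191 to 334 (median 211) at 18 months. The lowest value of the younger mice was 2 months replicate 1, the one of set 2, and without it 1 older library (18 months replicate 5, with 334) reached the lowest younger value of 333. As a share of all peaks away from gene ends in a library they were 2.18% ± 0.697 in the 2-month mice (SD, n = 4) and 2.72% ± 0.683 in the 6-month mice (n = 5). In the 12-month mice they were 1.26% ± 0.162 (n = 5) and in the 18-month mice 1.03% ± 0.207 (n = 6). On this scale the groups did not overlap: 1.65% to 3.90% in younger and 0.798% to 1.52% in older mice.

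Within library sets the picture was narrower. The share in set 3 was 2.58% ± 0.677 (n = 8), in set 2 1.28% ± 0.203 (n = 9) and in set 1 0.881% ± 0.0920 (n = 3). In set 2, where younger and older mice meet, the single library of 2 months had 1.65%, above the 5 of 12 months (1.105% to 1.52%) and the 3 of 18 months (1.02% to 1.36%). It lay below all 8 of set 3 (lowest 1.68%). That library also had the shortest list of set 2 (22127 peaks). Its count of 205 peaks away from gene ends in the stretch lay within the range of the older libraries of set 2 (191 to 334). The next shortest list of the set, 12 months replicate 4 (22530 peaks), had the next highest share, 1.52%. At 18 months the 3 libraries of set 1 (0.798% to 0.980%) lay below the 3 of set 2. The highest share, 3.90% in 6 months replicate 3, came with the lowest implied background of all, 0.733, and the second of them, 3.14% in 2 months replicate 2, with 1.21. The highest implied background, 3.92, came with 2.57% in 6 months replicate 4, also of set 3. The part of depth in these shares was not tested.

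**Figure D2:**
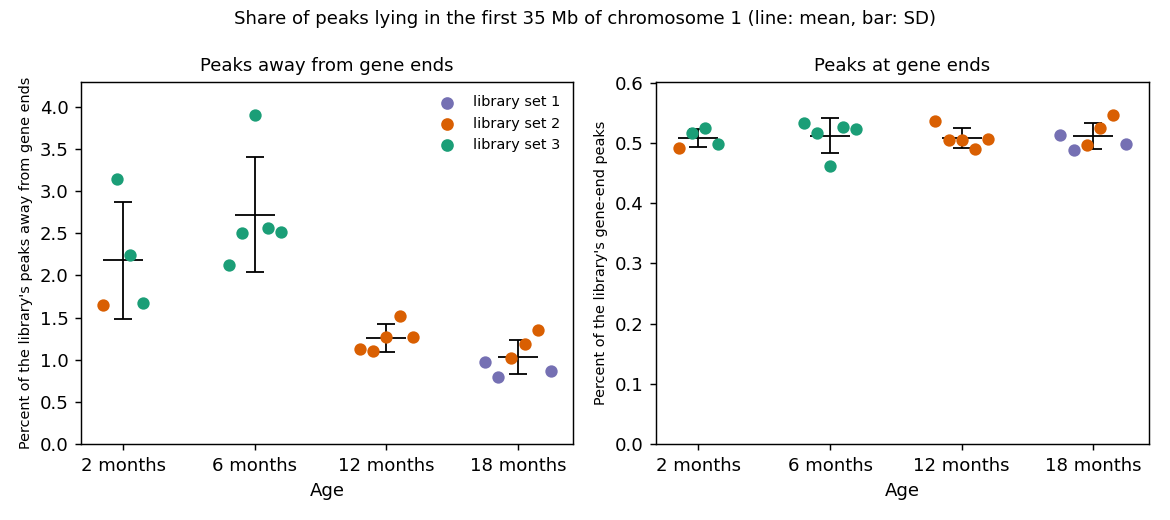
Percent of each library's peaks away from gene ends (left) and at gene ends (right) that lie in the first 35 Mb of chromosome 1, by age, with 1 point per library coloured by library set, lines for means and bars for SD. On the left the younger libraries lie between 1.65% and 3.90% and the older between 0.798% and 1.52%. On the right every library lies between 0.462% and 0.546%.

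Per Mb, the stretch was poor in gene-end peaks in every library, at 0.447 to 0.516 of the density on the rest of chromosome 1. For peaks away from gene ends the same ratio was 1.36 to 2.65 in set 3, 1.37 in 2 months replicate 1 and 0.680 to 1.36 in the other 11 libraries. The 9 younger libraries were all above the density of the rest of the chromosome, and the older ones lay on both sides of it.

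Calls at single regions showed the same one-sidedness. Every library of 2 and 6 months and none of 12 and 18 months called 12 members, all away from gene ends (1.34%, against 0.11% of all regions). The reverse pattern occurred in 0 members (0.00746% of all regions). All 8 libraries of set 3 and no other library called 26 members (2.91%, against 0.082%), and the reverse occurred in 0 (0.00373% of all regions). When 2 months replicate 1 was left out of the age split, the 12 became 38. A looser count gave 375 members (41.9%) called in 1 or more of set 3 and in no other library, against 10.0% of all regions and 18.8% on the rest of the chromosome. There were 138 members (15.4%) called in sets 1 or 2 only, against 26.1% of all regions.

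The first 10 of the 12 by position had, as the gene around or nearest to them, one without a gene-end peak in any library, apart from Sox17. Of the 112 genes of the stretch, 57 had none. The 10 regions lay 49.3 to 356 kb from the nearest gene end. They were between genes 152 kb from Xkr4 (3824066 to 3824635) and 65.0 kb from Sox17 (4562234 to 4563384), inside Sntg1 (a syntrophin of neurons, 8694734 to 8695163), inside A830018L16Rik (11777070 to 11777526) and 356 kb from its end (12331542 to 12332278). Others were 49.3 kb from Eya1 (14119468 to 14119849), 135 kb from Pi15 (17467019 to 17467961), 273 kb from Defb41 (18538087 to 18538500), 229 kb from Tfap2d (18874129 to 18874531), and inside Rims1 (22667781 to 22668518). Their median -log10 q ran from 8.12 to 23.6. In the other direction the most one-sided 5 were less complete. The leading one, 34409742 to 34410231 and 26.6 kb from Ccdc115, was called in 10 of 11 older libraries and 1 of 9 younger, and a region inside Tram2 (21014436 to 21015057) in 11 of 11 and 2 of 9. The other 3 lay 163 kb from Trpa1 (7 older libraries, 0 younger), 113 kb from Prex2 (8 and 1) and inside Prex2 (8 and 1).

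At the boundary the members did not stop abruptly. The last 3 inside were 34858417 to 34859233 and 34867253 to 34867612, both within Plekhb2, called in 16 and 7 libraries, and 34915148 to 34916264, called in 7 libraries, all of set 3. The first region outside, 35124456 to 35124870, was called in all 8 libraries of set 3 and in no other. The next, 35166865 to 35167394 and 35168925 to 35169174, were each called in 1 library.

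Along the stretch, the excess of set 3 ran through all 7 bins of 5 Mb. Peaks away from gene ends per 10000 such peaks of the library were 75.5 in set 3, 38.3 in set 2 and 21.6 in set 1 between 5 and 10 Mb, the densest bin. Between 25 and 30 Mb they were 17.9, 4.39 and 2.52. The ratio of the set 3 mean to the mean of the other 12 libraries ran from 1.67 (0 to 5 Mb) to 4.56 (25 to 30 Mb). Over the 32 bins outside the stretch its median was 1.15, with a range of 0.894 to 5.05, and 6 of them exceeded the lowest inside. High ratios therefore also occurred elsewhere on the chromosome.

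**Figure D3:**
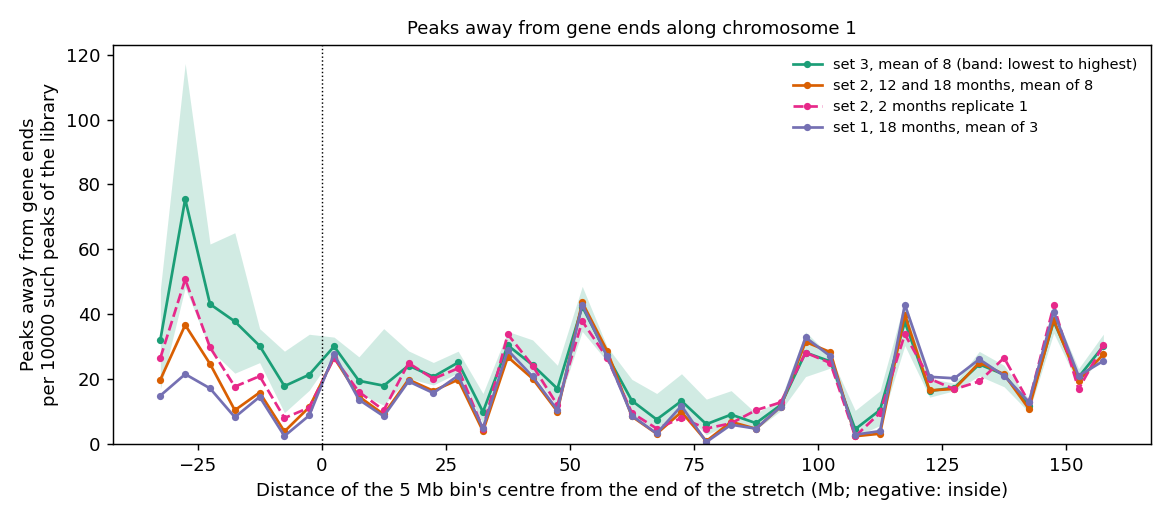
Peaks away from gene ends per 10000 such peaks of a library (vertical axis) in bins of 5 Mb along chromosome 1, by distance in Mb of the bin's centre from the end of the stretch (horizontal axis, negative inside). Lines are means of set 3 (8 libraries, band from lowest to highest), set 2 without its library of 2 months (8), that library alone (dashed) and set 1 (3), and the lines part most left of the dotted boundary, where the set 3 mean reaches 75.5.

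By Mb, members were densest from 5 to 6 Mb (60 members), 4 to 5 Mb (58), 7 to 8 Mb (54), 16 to 17 Mb (46), and 8 to 9 and 34 to 35 Mb (39 each). The fewest lay from 25 to 26 and 31 to 32 Mb (11 each), then 27 to 28 and 28 to 29 Mb (13 each), and 26 to 27 and 32 to 33 Mb (14 each). The 2 densest bins differed in which libraries filled them. From 5 to 6 Mb a library of set 3 had 33.4 peaks away from gene ends on average and one of sets 1 and 2 had 17.8. From 4 to 5 Mb, which holds Sox17, the averages were 26.8 and 25.8.

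The longest intervals without a protein-coding gene held more peaks in set 3. From 4931408C20Rik to Gm597 (26687461 to 28776121, 2.09 Mb) there were 22 members, of which 0 were called in all libraries, with 3 to 9 peaks per library in set 3 and 0 to 4 in sets 1 and 2. From Gm597 to Phf3 (28780253 to 30802341, 2.02 Mb) there were 41 members and none in all libraries, with 12 to 19 peaks against 2 to 9. From Pcmtd1 to Sntg1 (7173629 to 8359738, 1.19 Mb) there were 64 members, 6 of them in all libraries, with 25 to 38 peaks against 12 to 29. From Dnaaf6 to Khdrbs2 there were 12 members, with 3 to 7 peaks against 0 to 2, and from Adgrb3 to 4931408C20Rik 16 members, with 6 to 10 against 1 to 5. The ranges overlapped in the first and the third of these and were apart in the other 3. In all, 9 intervals exceeded 0.5 Mb and held 209 of the 584 members between genes.

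Inside genes, members gathered in a few long ones. Sntg1 (942 kb) held 28, A830018L16Rik (562 kb) 25, Dst (401 kb) 19, Xkr4 (472 kb) 14, and Prex2, St18 and Pkhd1 11 each. Other long genes held few: Adgrb3 (767 kb) and Khdrbs2 (533 kb) 6 each, and Kcnq5 (564 kb) and Rims1 (520 kb) 5 each. Sntg1 had 17 to 22 peaks per library in set 3 and 5 to 18 in sets 1 and 2, with 11 in 2 months replicate 1. A830018L16Rik had 12 to 17 and 3 to 11, with 9 in that library, and Pkhd1 3 to 8 and 0 to 3, with 2. Dst did not follow them, with a mean of 8.63 in set 3, 8.22 in set 2 and 10.3 in set 1. Prex2 likewise had means of 7.13, 6.44 and 7.33, and Ncoa2 (10 members) 5.25, 5.22 and 4.33. Xkr4 had 8 to 12 peaks per library in set 3 and 2 to 7 in the other sets, and St18 4 to 6 and 2 to 6. These genes were named after their values were seen, and no test was made.

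A call depends on a threshold, so the height of peaks was read at the 101 members that every library called. The pileup, the number of stacked reads or fragments at the summit, was recovered from the authors' fold and p-value. It was divided by the library's median at the 355 gene-end regions of the rest of chromosome 1 that all libraries called, which gives a relative pileup. At the 34 gene-end members the mean of set 3 over the mean of sets 1 and 2 was 0.892 to 1.24, with a median of 1.01, and no region exceeded 1.5. At the 67 others it was 0.850 to 3.28, with a median of 1.51, and 34 exceeded 1.5, against 4.69% of the 789 always-called regions of the chromosome. The bound of 1.5 was chosen after the values were seen. On the rest of the chromosome the medians were 1.00 at 355 gene ends and 0.983 at 333 others, with 0 and 3 over 1.5.

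Eloc shows a gene end. Its relative pileup was 1.88, 1.44, 1.87 and 1.28 at 2 months, 1.5, 1.91, 1.35, 1.79 and 1.88 at 6 months, 1.36, 1.62, 1.70, 1.57 and 1.74 at 12 months, and 1.30 to 1.90 (median 1.59) at 18 months. All ages and sets overlapped, and the ratio of set 3 to the rest was 1.01.

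A region inside Prex2, at 11261214 to 11262452 and 42.1 kb from the gene's nearest end, had the largest ratio of the 101. Its relative pileup was 0.844, 2.25, 1.00 and 1.03 at 2 months, 1.34, 1.58, 2.78, 1.96 and 1.93 at 6 months, 0.520, 0.467, 0.619, 0.717 and 0.702 at 12 months, and 0.291 to 0.592 (median 0.391) at 18 months. Every younger library was above every older one, and the lowest of the younger was again the one of set 2. The ratio was 3.28. The local background recovered at the region, in multiples of the library's implied background, moved with it and averaged 1.94 in sets 1 and 2 and 6.00 in set 3.

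A region inside Jph1 (16952640 to 16953512, 11.2 kb from an end) was alike. Its relative pileup was 1.09, 2.09, 1.33 and 0.986 at 2 months, 1.77, 1.47, 3.22, 1.68 and 1.5 at 6 months, 0.600, 0.517, 0.667, 0.804 and 0.614 at 12 months, and 0.279 to 0.596 (median 0.351) at 18 months. Younger and older libraries did not overlap, with a ratio of 3.16 by set. Ncoa2 held another of this kind, at 13210726 to 13211391, with 3.02.

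The widest members were of this kind as well, apart from the gene end of Rpl7, a ribosomal protein gene (16104091 to 16106365, 2275 bp). A region of 3347 bp between genes (7332285 to 7335631, 160 kb from Pcmtd1) had a relative pileup of 2.19, 3.31, 2.11 and 1.49 at 2 months and 1.79, 2.60, 3.91, 2.87 and 2.67 at 6 months. It had 0.960, 0.883, 1.03, 1.59 and 1.105 at 12 months and 0.547 to 1.04 (median 0.798) at 18 months. The lowest younger library (1.49) was below the highest older one (1.59), and the ratio by set was 2.49. The ratio was 2.01 at the widest member of all (6168906 to 6172441, 3536 bp, 44.0 kb from Rb1cc1), 2.74 at 8157712 to 8159937 (2226 bp, 200 kb from Sntg1) and 2.27 at 10890721 to 10892402 (1682 bp, 101 kb from Prex2).

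Over the 67 always-called others, every library of 2 and 6 months was above every one of 12 and 18 months at 13, against 1.77% of the 789 always-called regions, and the opposite occurred at 0. Every library of set 3 was above all others at 3, against 0.507%. The library of 2 months in set 2 was the highest of its 12 at 31 of the 67, and at 26 of the 34 with a ratio over 1.5. On the rest of the chromosome it was so at 34 of 333 others and 65 of 355 gene ends, and in the stretch at 8 of 34 gene ends. These counts come from 1 library, and its regions are not replicates of an age. The 34 with a ratio over 1.5 were also picked by their values in set 3, so the counts cannot tell age from library set. The local background on the same scale showed a ratio of set 3 to the rest near that of the pileup, with a median of 1.49 at the others and 0.967 at the gene ends. Summed up per library, the median pileup of the 67 over that of the 333 on the rest of the chromosome was 1.03 to 2.35 in set 3, 1.27 in 2 months replicate 1, and 0.635 to 1.08 in the 11 older libraries. For the gene ends that ratio was 0.872 ± 0.0515 (n = 20), from 0.764 to 0.950, and it did not separate ages or sets.

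**Figure D4:**
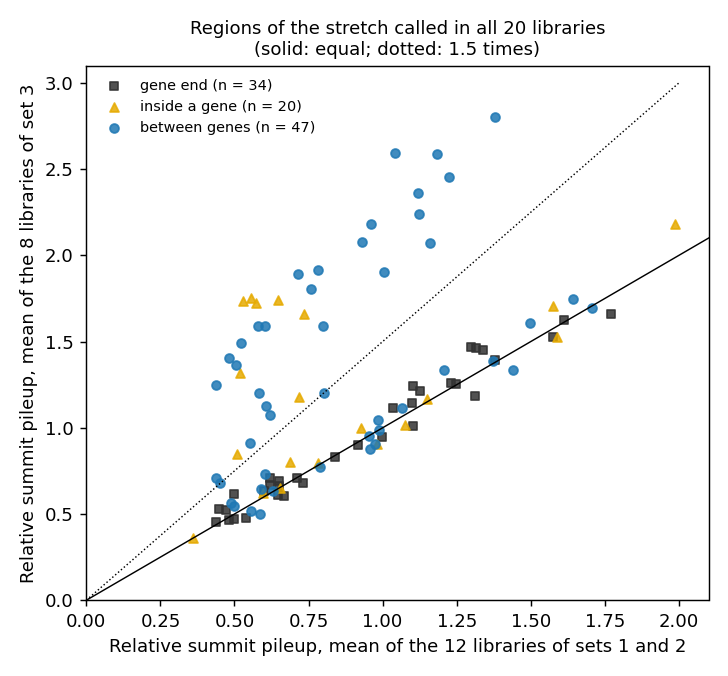
Relative summit pileup of the 101 members called in all 20 libraries, as the mean of the 12 libraries of sets 1 and 2 (horizontal axis) and of the 8 of set 3 (vertical axis). Squares are gene ends, triangles lie inside genes and circles between genes. The gene ends follow the solid line of equality (ratios 0.892 to 1.24), while 34 of the 67 others lie above the dotted line of 1.5.

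Around Sox17 the regions away from gene ends did not share the excess of set 3. Between the ends of Rp1 and Mrpl15, over 363.9 kb around Sox17 (4490928 to 4497426), lay 41 members, of which 12 (29.3%) were called in all 20 libraries, against 11.3% of all members and 23.7% of all regions. Of the stretch's 67 always-called members away from gene ends, 11 lay here. A library had 19 to 32 peaks in the interval, with 22.6 ± 2.20 in set 3 (SD, n = 8) and 25.4 ± 4.08 in the other 12, so that set 3 was not the higher. Other intervals lacked a clear excess of set 3 too. Between Ppp1r14bl and Ogfrl1 the mean number of peaks away from gene ends was 14.4 in set 3, 13.2 in set 2 and 16.3 in set 1. Between Dst and Ccdc115 the means were 2.63, 4.33 and 5.67. In each of the longest 5 gene-free intervals set 3 had the highest mean. The pileup ratios of the 12 near Sox17 ran from 0.918 to 1.22.

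The strongest of them lay well away from the gene. At 4571279 to 4572445, with the summit 74.5 kb above the higher end of Sox17, the relative pileup was 1.5, 1.44, 1.67 and 1.67 at 2 months, 1.59, 2.07, 1.48, 1.91 and 1.74 at 6 months, 1.62, 1.65, 1.84, 1.96 and 1.84 at 12 months, and 1.48 to 1.91 (median 1.66) at 18 months. All ages overlapped, with a ratio of 0.994 by set, and the median -log10 q was 59.5. The next, at 4543784 to 4544943 (46.8 kb above) and 4470626 to 4472073 (25.9 kb below), had median -log10 q values of 54.2 and 46.9. The gene end itself, 4496250 to 4497652, had a lower median, 13.3, beside 25.9 at a region inside the gene (4492902 to 4493937). In these medians each library counts with 1 peak. Whether any of these acts on Sox17 was not tested.

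The same interval also held members of the other kind. Around 60 to 69 kb above Sox17 lay 7 regions, called in 19, 3, 11, 19, 3, 9 and 6 libraries. The one called in 9, at 4562234 to 4563384, had a peak in each younger library and in no older one, with a summit pileup of 59 to 114. The next, 4566168 to 4566458, was called in 6 younger libraries and no older one. Another, 4559611 to 4560128, was called in 2 younger and 9 older libraries.

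**Figure D5:**
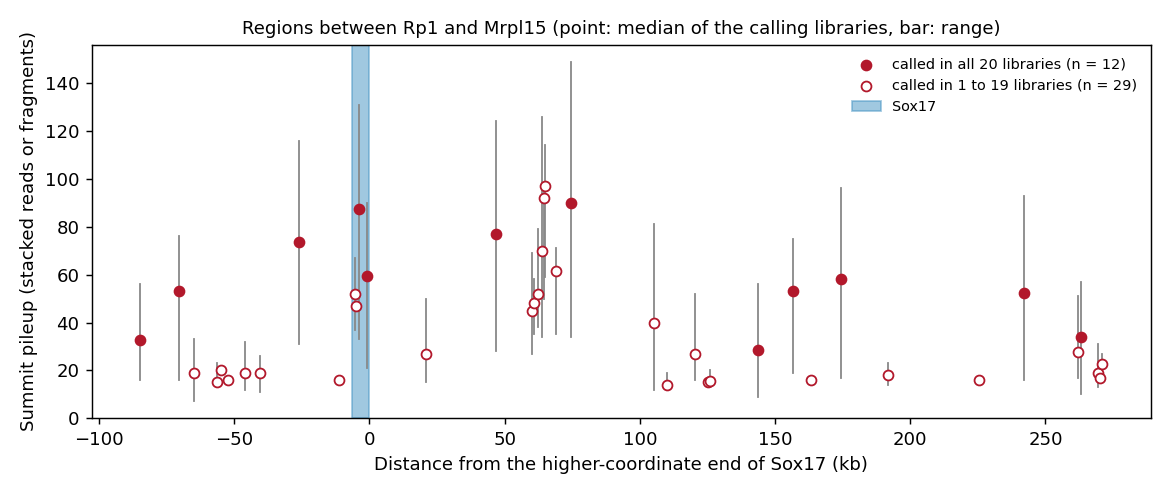
Summit pileup (vertical axis, stacked reads or fragments, without scaling) of the 41 regions between Rp1 and Mrpl15, by distance in kb of the summit from the higher-coordinate end of Sox17 (horizontal axis), with points for the median of the calling libraries and bars for their range. Filled points are the 12 called in all 20 libraries, of which the one at 74.5 kb has a median of 90, and the blue band is Sox17.

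Other always-called members away from gene ends, with the 3 near Sox17, made up the strongest 8 of that class. They were ranked by the median -log10 q over all peaks of a region, which was 52.0 at 4543784 to 4544943 near Sox17. The highest of all, 7088190 to 7089571 inside Pcmtd1 and 1.73 kb from its end, had a median -log10 q of 66.0. With gene ends reaching to 2000 bp, this region and the one inside Ncoa2 named next would count as gene ends. A region 110 kb from Ogfrl1 (23255856 to 23257136) had 53.4, one inside Ncoa2 (13372254 to 13373849, 1.68 kb from its end) 48.9, one 10.3 kb from Pcmtd1 (7076401 to 7077140) 45.8, and one inside Dst (34268866 to 34269894, 39.4 kb from an end) 42.1. At the region near Ogfrl1 the mean relative pileup was 1.69 ± 0.224 in the 2-month mice (SD, n = 4) and 1.84 ± 0.236 in the 6-month mice (n = 5). It was 1.59 ± 0.0819 in the 12-month mice (n = 5) and 1.63 ± 0.232 in the 18-month mice (n = 6), and all ages overlapped. The ratio of set 3 to the rest was 0.943 to 1.107 at these 5 regions.

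The sexes were compared within ages, which the choice of the stretch had not used. The share of a library's peaks in the stretch was lower in males by 0.193 percentage points after centring on the age means (-0.116 in 8 males and 0.0772 in 12 females). An exact two-sided permutation test over the 8000 arrangements of sex within ages gave p = 0.0926. The difference was -0.232 with an exact permutation p of 0.0323 without 6 months replicate 1. It was -0.0927 with an exact permutation p of 0.347 when sexes were permuted within each age of each library set. A difference between the sexes was therefore not shown.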

How the data were processed

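Peaks were measured in 20 ATAC-seq libraries and deposited as 1 narrow peak list per library, so calls were made per sample. FastQC, Trim Galore 0.4.2, Picard 1.115, MACS2 2.1.0 and build mm10 are named in the submitters' processing notes. The aligner is not given in the sources used here. File names say that blacklisted regions were removed. The deposited lists hold, as the authors' own values, a score, a fold (ratio) over local background, and p and q as −log10 values. The score was not used.

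Regions were unions of peaks on chromosomes 1 to 19 and X. Fold and −log10 p were inverted to a whole-number summit pileup and local background (tolerance 0.01), tested on simulated data. Genes were 21517 protein-coding RefSeq genes of GRCm38.p6, and promoter sequences came from RefSeq too. Tests were permutations over libraries (Python 3.11.15, scipy 1.17.1), and 2 width tests were adjusted by Benjamini-Hochberg. The labels do not say outright that each library is a separate animal, and p-values measure only the spread between these samples. Read depth was not analysed here, and where no peak is listed the chromatin may still be open.

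Members, gene lists and tests were chosen with earlier results of these data known. Named were the strongest 8 always-called gene ends and 8 others, the most one-sided 10 and 5 by age, the widest 5, 3 at either side of the boundary, the fullest and emptiest 5 bins of 1 Mb, the longest 5 gene-free intervals and up to 3 genes per list. The regions inside Jph1 and Ncoa2 with high pileup ratios, the inner peaks per gene and the other genes beyond 3 per list were named after their values were seen. A listed gene is not reported here.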

Additional observations from a re-analysis of the deposited data

Results flagged for a closer look

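In groups of 4 to 10 samples, 3 of 32 group and measure combinations had 1 library far from the rest by Dixon's criterion at the 95% level, which chance alone gives in about 1 in 20 groups. At 6 months, replicate 3 had the highest share of its peaks in the first 35 Mb, 2.47%, where the other 4 had 1.56% to 1.80%. The same library had the highest pileup at always-called members away from gene ends, 2.35 times that on the rest of chromosome 1, beside 1.22 to 1.51. It also had the lowest implied background of all 20 libraries, 0.733. At 18 months, replicate 5 had 334 peaks away from gene ends in the stretch, against 191 to 238 in the other 5. As a share of its own peaks of that kind this was 1.36%, the highest of the 6. No cause was tested.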

How the results depend on the processing

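Of 240 recomputed values, 223 were labelled as unchanged. For tested differences this meant the same direction and side of the threshold, and for shares and ratios a move smaller than their spread. Counts of members have neither a threshold nor a spread, and were labelled by a fixed bound on their fold change. By it, the 81 members called in all libraries at a −log10 q of at least 5 were unchanged from 101. The 62 in lists of equal length were not. The width difference between gene-end and other peaks kept its call in every alternative (236 to 248 bp with 1 library left out). The narrower gene ends of the stretch were -14.5 bp (permutation p = 0.0911) with gene ends within 2000 bp, and -52.4 to -43.6 bp with 1 library left out. The sex difference was -0.232 to -0.123 points with 1 library left out (exact permutation p from 0.0323 to 0.236). A stretch ending at 40 Mb held 91 gene ends, with shares of 1.28% at 12 months and 1.16% at 18 months. At 30 Mb the share at 12 months was 0.873%. In lists of equal length it was 0.898% at 12 months and 0.678% at 18 months, beside 0.984% and 0.868% in full lists. The gene-end pileup ratio, 0.872, was 1.00 for peaks with a −log10 q of at least 5, 0.960 in equal lists, 0.937 with gene ends within 2000 bp, and 0.935 at 30 Mb and 0.933 at 40 Mb. Of the 101 members called in all libraries, equal lists gave 62 and a required cover of 50% gave 27. The 12 members called only at 2 and 6 months were 12 to 38 with 1 library left out, the 38 without 2 months replicate 1, and 26 when split by library set, an alternative chosen after seeing the data. The cause of these shifts was not tested. No paired analysis was possible because the replicate numbers follow the order of listing and pair nothing. Weak peaks depend on depth, which limits every count of calls.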
